A study of Mus musculus with 2 samples.

Results

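Plasmacytoid dendritic cells (pDC) are rare blood-derived immune cells, and 154 of them were found among 32372 good-quality cells sorted from the stomach lining of TxA23 mice. They were selected on their own measured RNA, counted in unique molecular identifiers (UMIs, each standing for 1 captured RNA molecule). A pDC needed at least 1 UMI of Siglech, at least 4 UMIs in the sum of Siglech, Tcf4, Ccr9, Bst2 and Irf8, no UMI of the T cell genes Cd3d, Cd3e and Cd3g, and at most 1 UMI of the B cell gene Cd79a. Cells with under 200 detected genes or over 10% mitochondrial UMIs were not considered. The levels of the genes named in this rule are therefore descriptions and support nothing.

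All mice were TxA23, a strain whose transgenic T cell receptor recognises a stomach self-antigen and which develops autoimmune gastritis. The IL-27 group was 3 female mice carrying subcutaneous osmotic pumps with 800 ng of recombinant IL-27 (p28 covalently linked to EBI3, 4 ug per mL in 200 uL). The PBS group was 1 female and 1 male mouse with pumps holding PBS alone. Mice were 3 months old at pump placement and were examined 4 weeks later, when live CD45+ cells flushed from the gastric mucosa were profiled with 10x Genomics 5' chemistry. Each group was deposited as 1 library that pools its mice, so no test between groups was possible and no p-value is given. Barcode suffixes marked 3 wells within the IL-27 library and 2 within the PBS library, although the labels do not say that a well is a mouse.

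PBS well 2 stood apart from every other well. It held 3074 UMIs of the Y-linked genes Ddx3y, Uty, Kdm5d and Eif2s3y and the other 4 wells held 0. Of its 73 pDC, 51 had a Y-linked UMI and 2 had the female-specific Xist, whereas Xist was seen in 36 of 37, 13 of 14 and 19 of 20 pDC in IL-27 wells 1 to 3 and in 10 of 10 in PBS well 1. PBS well 2 is called the male well and PBS well 1 the female PBS well. The male well supplied 666481 of the 718064 PBS pDC UMIs, so any library-wide difference from PBS is mostly a difference from that well, and sex and treatment cannot be told apart in it. Values are therefore given by well, and the main ratios and list medians also against the female PBS well, whose 10 pDC held 51583 UMIs. The libraries shared 355 barcodes, none of them between pDC of both libraries.

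pDC sense viral and self nucleic acids inside endosomes through the receptors TLR7 and TLR9, and are known for releasing large amounts of type I interferon through the transcription factor IRF7. Their identity rests on the transcription factor TCF4, and in mice they carry the surface lectin Siglec-H, the tetherin BST2 and the gut-homing chemokine receptor CCR9. They share a developmental history with lymphocytes and commonly transcribe parts of the B and T cell programmes. IL-27, made of p28 and EBI3, signals through IL27RA and gp130 (Il6st) to STAT factors, STAT3 among them.

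The sum limit decided few cells and the T and B cell limits more. Of 272 good-quality cells with a Siglech UMI, 233 reached the sum of 4, 181 of those had no Cd3 UMI and 154 also passed the Cd79a limit. The sum over the 5 rule genes had a median of 84.5 UMIs among members and ran from 8 to 264, so no member lay between 4 and 7. With a Siglech UMI and within the T and B cell limits, 1 further cell fell short of the sum, at 2 UMIs, with no UMI of Spib, Klk1 or Cox6a2. A further 64 cells within those limits had a sum of at least 8 but no Siglech UMI and were left out. Of the cells that reached the sum, 52 were left out for a Cd3 UMI and 27 for Cd79a alone. Among these cells 61 had at least 4 Siglech UMIs, 22 from the IL-27 library and 39 from the PBS library. All of these values belong to the rule and describe it only.

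In the pooled libraries pDC made up a smaller share of IL-27 cells than of PBS cells, but the IL-27 wells lay between the 2 PBS wells. The share was 0.490% in IL-27 well 1 (37 cells, exact binomial 95% interval 0.345 to 0.675), 0.233% in well 2 (14 cells, 0.127 to 0.390) and 0.285% in well 3 (20 cells, 0.174 to 0.440). It was 0.158% in the female PBS well (10 cells, 0.0756 to 0.290) and 1.34% in the male PBS well (73 cells, 1.05 to 1.68). The library-wide ratio of IL-27 to PBS was 0.490 (exact conditional 95% interval 0.352 to 0.681). Against the female PBS well alone the ratio turned to 2.19 (1.12 to 4.76), and against the male well it was 0.258 (0.183 to 0.362). The difference between the 2 PBS wells was larger than either, the male well holding 8.49 times the share of the female well (4.37 to 18.5). These intervals cover counting error only.

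**Figure D1:**
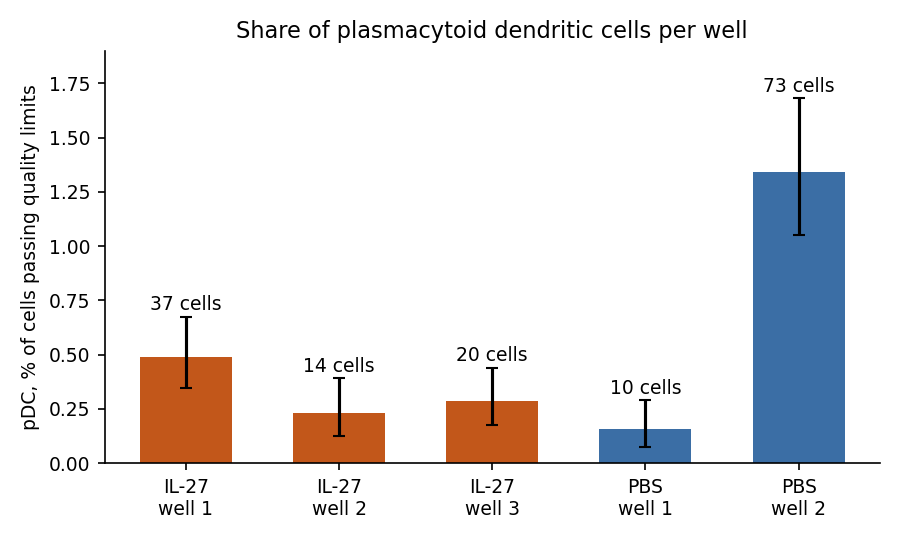
Share of pDC among good-quality cells in each well, as a percentage, with exact binomial 95% intervals and the number of pDC above each bar. The IL-27 wells (orange) sit between 0.233% and 0.490%, above PBS well 1 at 0.158% and below PBS well 2 at 1.34% (blue).

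The other sparse myeloid cells followed the same wells. Macrophage-gated cells were 0.252%, 0.200% and 0.228% of the IL-27 wells, 0.158% of the female PBS well and 0.917% of the male PBS well. As a share of pDC, conventional dendritic cells (cDC) and macrophages combined, pDC were 56.1%, 42.4% and 44.4% in the IL-27 wells, against 40.0% and 53.3% in the PBS wells. On that denominator the groups overlapped. Without the Cd3 and Cd79a limits and with at least 4 Siglech UMIs, an alternative chosen after the data were seen, pDC-like barcodes were 0.609%, 0.316% and 0.328% of the IL-27 wells, against 0.347% and 1.71% of the PBS wells.

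Genes that the rule did not use were also far higher in pDC than in the other classes, though those named first were chosen for that. Values below are UMIs summed over the pDC and scaled to a total of 1000000 (CPM). Each RNA molecule is tagged once at its 5' end, so gene length does not enter. The 2 genes furthest above the T-, B-, macrophage- and cDC-gated cells were Cox6a2, a muscle-type subunit of cytochrome c oxidase, and Klk1, a kallikrein protease. Cox6a2 stood at 2161, 2276 and 2152 CPM in the IL-27 wells and at 2462 and 2767 CPM in the PBS wells, against at most 0.272 CPM in any other class. Klk1 stood at 1943, 2175 and 1637 CPM in the IL-27 wells and at 2055 and 2998 CPM in the PBS wells. UMIs of Cox6a2 were found in 96.1% of pDC and in 0.0759% of B-gated and 0.119% of T-gated cells. After thinning every cell to 1000 UMIs the shares were 83.1%, 0.0667% and 0. A list of 30 pDC identity genes summed to 19540 CPM in pDC, against at most 4070 CPM, in macrophage-gated cells. Some of its members were nevertheless seen in more cells of another class after thinning. Ly6d was seen in 9.09% of pDC and 17.3% of B-gated cells. Zeb2 was seen in 21.4% of pDC and 28.7% of macrophage-gated cells, and Cybb in 43.5% and 57.4%.

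The other genes far above the 4 other classes had varied roles. They included Atp2a1, the calcium pump of fast muscle, at 201 CPM in pDC, Lefty1, a secreted inhibitor of Nodal signalling, at 409 CPM, and Upb1, an enzyme of pyrimidine breakdown, at 296 CPM. Runx2, a transcription factor that mouse pDC need to leave the bone marrow, stood at 387 CPM, the lysosomal protease Ctsl at 948 CPM and the collagen receptor Lair1 at 588 CPM. Csf2rb2, the mouse IL-3 receptor chain, stood at 339 CPM, and Kmo, an enzyme of tryptophan breakdown, at 463 CPM. All of these were 7.91-fold or more above the highest of the 4 other classes, which is how they were chosen.

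**Figure D2:**
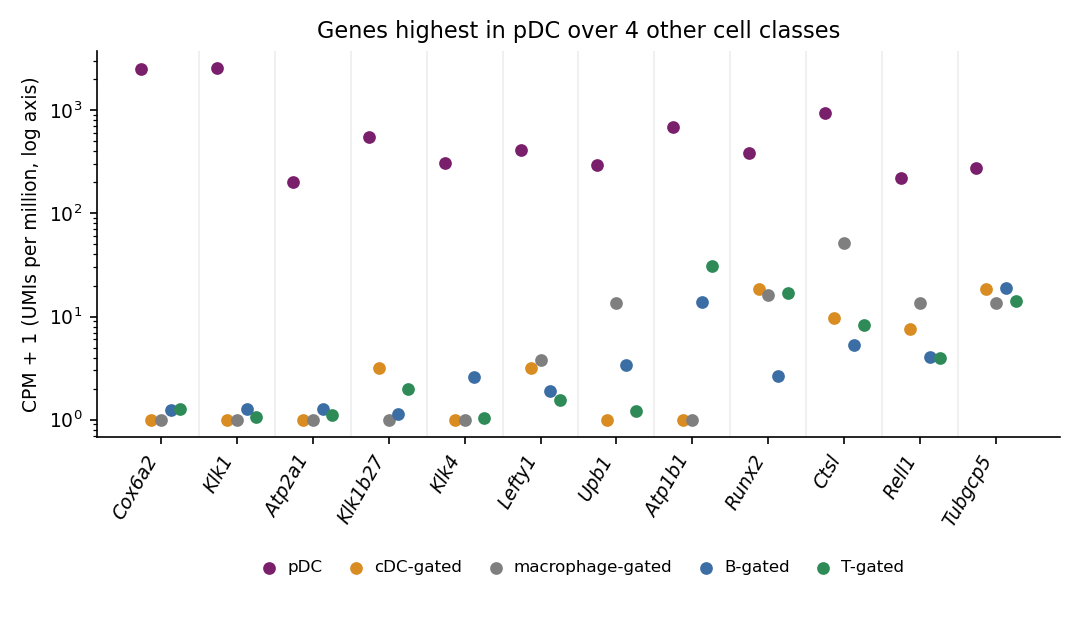
CPM plus 1, on a log axis, of the 12 genes with the largest fold of pDC over the highest other class, both libraries pooled. Cox6a2 and Klk1 lie at 2540 and 2552 CPM in pDC and under 1 CPM in the cDC-, macrophage-, B- and T-gated cells.

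These genes were unevenly placed in the genome. Of the 20 genes furthest above the other classes, 8 lie on mouse chromosome 7 (40.0%), against 52 of the 602 genes with at least 200 CPM in pDC (8.64%). Siglech itself lies there, on the plus strand at 55768178 to 55778925 (GENCODE M21, GRCm38), and Tubgcp5, a gamma-tubulin complex gene among the 20, begins 15229 bases beyond its end. The kallikreins Klk4, Klk1b27 and Klk1 follow each other on the same chromosome from 43881160 to 44229618. Klk1 and Klk1b27 are near-copies of each other, so UMIs may be split wrongly between them.

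The promoters of Siglech, Klk1 and Klk4 are shown because TCF4, the factor of pDC identity, is an E protein that binds E-boxes. Each line gives the 250 bases before the RefSeq start (GRCm38.p6), read 5' to 3' on the gene's strand, with every CANNTG in capitals, a motif that reads the same on both strands.
Siglech: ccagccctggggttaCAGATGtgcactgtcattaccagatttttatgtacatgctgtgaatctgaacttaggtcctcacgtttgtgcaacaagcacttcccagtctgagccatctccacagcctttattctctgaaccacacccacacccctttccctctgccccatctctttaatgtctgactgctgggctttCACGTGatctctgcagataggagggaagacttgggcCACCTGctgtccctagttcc
Klk1: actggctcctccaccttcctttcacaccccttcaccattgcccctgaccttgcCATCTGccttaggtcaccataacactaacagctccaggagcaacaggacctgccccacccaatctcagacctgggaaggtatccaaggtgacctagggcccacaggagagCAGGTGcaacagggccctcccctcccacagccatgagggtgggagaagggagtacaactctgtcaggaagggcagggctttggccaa
Klk4: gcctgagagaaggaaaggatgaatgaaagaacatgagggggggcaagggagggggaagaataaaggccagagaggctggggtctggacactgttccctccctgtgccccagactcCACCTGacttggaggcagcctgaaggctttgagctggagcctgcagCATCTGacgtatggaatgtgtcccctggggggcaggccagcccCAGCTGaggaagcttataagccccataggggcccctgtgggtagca

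The stretches lie at chr7:55767934-55768183, chr7:44225110-44225359 and chr7:43880910-43881159, all on the plus strand. They hold 3, 2 and 3 E-boxes, and each holds 1 match to CAGGTG on either strand. The same stretch of Atp2a1, another of the 20 genes, held 1 E-box and 0 matches to CAGGTG. Only 3 of the 24 promoters found for the 20 genes held CAGGTG, those of Klk1 and Klk4 among them, so the promoters shown are not typical. E-boxes are common, however. CANNTG was present in 66.7% of the 24 promoters found for 18 of the 20 pDC genes and in 66.2% of all 32851 promoters in the table, and CAGGTG in 12.5% and 17.2%. The shares among pDC genes were thus near or below those of all promoters, and a match describes letters, not binding.

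pDC carried several B and T cell transcripts at levels near those of B- and T-gated cells, and others at much lower levels. The low levels are partly set by the rule, which left out cells with any Cd3 UMI or over 1 Cd79a UMI. Iglc3, a lambda light chain constant gene, was found in 92.9% of pDC at 1078 CPM, close to the 1262 CPM of B-gated cells. Ighm, the IgM heavy chain gene, stood at 589 CPM in pDC and 913 CPM in B-gated cells. Ms4a1, which encodes the B cell surface protein CD20, had 1 UMI in all pDC, against 681 CPM in B-gated cells. Igkc, the kappa light chain constant gene, was found in 40.9% of pDC at 348 CPM, against 1365 CPM in B-gated cells, and Cd79b, a signalling chain of the B cell receptor, in 31.2% at 54.1 CPM, against 1548 CPM. Per UMI of Ms4a1 there were 1216 UMIs of Iglc3 in pDC and 1.85 in B-gated cells.

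The T cell side had the same form. Trac, the constant region of the T cell receptor alpha chain, was found in 76.6% of pDC at 331 CPM, against 391 CPM in T-gated cells. Trbc1, a beta chain constant region, stood at 141 CPM in pDC and 436 CPM in T-gated cells. Trbc2, the other beta chain constant region, had 8 UMIs in pDC (7.09 CPM), against 1210 CPM in T-gated cells, and the receptor kinase Lck had 11 UMIs. There were 46.6 UMIs of Trac per UMI of Trbc2 in pDC and 0.323 in T-gated cells. B-gated cells, which should lack Trac, had a UMI of it in 12.5% of cells at a median depth of 2848 UMIs per cell, while pDC had a median of 6860 UMIs. With every cell thinned to 1000 UMIs, Trac was seen in 24.7% of pDC, 34.1% of T-gated cells and 4.80% of B-gated cells.

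With the T and B cell limits dropped and at least 4 Siglech UMIs asked for, an alternative chosen after the data were seen, the low transcripts were higher and the abundant ones changed little. Among these 203 cells Ms4a1 stood at 71.6 CPM and was found in 13.3%, Trbc2 stood at 104 CPM and was found in 18.2%, and Lck stood at 107 CPM. Iglc3 stood at 1016 CPM and Trac at 365 CPM. These cells held 1859 UMIs of Iglc3 and 131 of Ms4a1, and 667 of Trac and 191 of Trbc2. The UMI ratios of Iglc3 to Ms4a1 and of Trac to Trbc2 were thus much smaller than in the 154 pDC, and depend on the limits. In the 61 cells that only the limits had left out, Ms4a1 was found in 44.3% and Trbc2 in 50.8%. Whether the RNA of co-captured B or T cells has a part in these values was not tested.

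Of 154 pDC, 118 held a UMI of Trac, 143 a UMI of Iglc3 and 114 (74.0%) UMIs of both. With each gene so common, an overlap near this size follows from the single counts. Trac and Trbc2 were found together in 4 of the 154 pDC and in 34 of the 203 cells without the limits. Dntt, which adds bases at receptor gene joints in lymphocyte precursors, was seen in 38.3% of pDC and in 0.173% of T-gated and 0.00584% of B-gated cells. The interleukin 7 receptor gene Il7r stood at 366 CPM in pDC, above the 159 CPM of T-gated cells. The coreceptor genes Cd4 and Cd8a were seen in 51.3% and 35.1% of pDC, and together in 22.1%. Cd8b1, the CD8 beta chain, named after its values were seen, was found in 53.2% of pDC at 641 CPM, against 300 CPM in T-gated cells. By well Cd8b1 stood at 540, 796 and 217 CPM under IL-27 and at 620 and 737 CPM under PBS, so the groups overlapped.

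**Figure D3:**
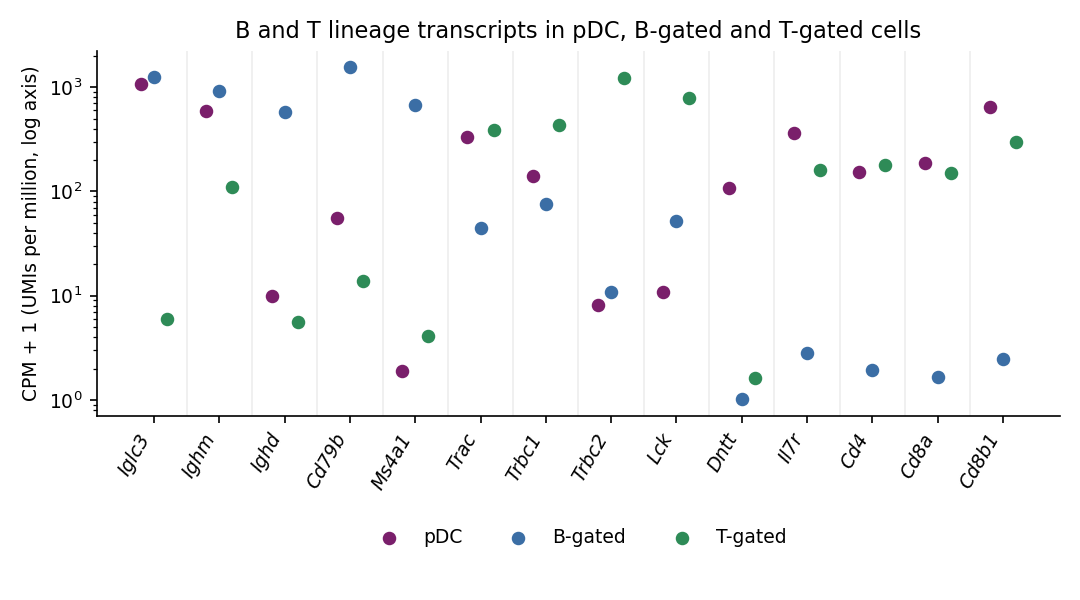
CPM plus 1, on a log axis, of 14 B and T lineage genes in pDC, B-gated and T-gated cells, both libraries pooled. pDC, chosen with no Cd3 and at most 1 Cd79a UMI, lie near B-gated cells for Iglc3 (1078 CPM) and near T-gated cells for Trac (331 CPM), and hold under 10 CPM of Ms4a1, Ighd, Trbc2 and Lck.

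The sensing machinery was present in pDC of both groups. Of 23 listed sensing genes 8 were measured, meaning that they reached 100 CPM in 1 library and 20 UMIs over both, and 1 of the 8, Irf7, was 2-fold higher in IL-27 pDC and 0 were 2-fold lower. Of all 1681 measured genes 0.952% were 2-fold higher and 2.44% 2-fold lower. Tlr7 stood at 104, 123 and 167 CPM in the IL-27 wells and at 194 and 114 CPM in the PBS wells, which overlapped. Unc93b1, the chaperone that carries these receptors to endosomes, stood at 808, 1222 and 906 CPM in the IL-27 wells and at 911 and 878 CPM in the PBS wells. Tlr9 was sparser, with 16 UMIs in IL-27 pDC and 35 in PBS pDC, none of them in the female PBS well.

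No interferon transcript was captured. The 20 type I and type III interferon genes searched held 0 UMIs in pDC and 1 UMI in all good-quality cells. A count of 0 in 154 cells allows a share of up to 1.95% of pDC with such a UMI. The receptor for interferon was present, Ifnar2 standing at 737, 639 and 536 CPM in the IL-27 wells and at 562 and 480 CPM in the PBS wells.

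The receptor for the infused cytokine was close to absent from pDC RNA. Il27ra had 0 UMIs in 71 IL-27 pDC, which allows up to 4.23% of those cells with a UMI, and 3 UMIs in 83 PBS pDC. It stood at 49.97 CPM in B-gated and 196 CPM in T-gated cells. Il6st, the shared signalling chain, was low at 36.5 CPM in IL-27 pDC and 19.5 CPM in PBS pDC. The downstream factor Stat3 stood at 180, 191 and 145 CPM in the IL-27 wells and at 252 and 200 CPM in the PBS wells. Every IL-27 well was thus below both PBS wells for Stat3, as for 11.3% of all measured genes.

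The clearest difference by library among the sensing genes was in Irf7, and it did not follow treatment across the wells. Irf7 stood at 862, 964 and 572 CPM in the IL-27 wells, at 737 CPM in the female PBS well and at 252 CPM in the male PBS well. The female PBS well lay within the IL-27 wells and the male well lay below all others. The library-wide ratio was 2.74 (exact conditional interval 2.30 to 3.28), a log2 ratio of 1.45.

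Several other genes had the same form. Socs3, a brake on cytokine signalling, stood at 98.2, 123 and 123 CPM in the IL-27 wells, 174 CPM in the female PBS well and 25.5 CPM in the male PBS well. Cd4 stood at 355, 213 and 181 CPM in the IL-27 wells, against 310 and 73.5 CPM, and the inhibitory receptor gene Lag3 at 344, 325 and 225 CPM, against 465 and 146 CPM. In each case the female PBS well lay within or above the IL-27 wells. Ifi27l2a, an interferon-induced gene, stood at 2151, 2074 and 1565 CPM in the IL-27 wells and at 2520 and 905 CPM in the PBS wells. Over the 11 measured members of the 47-gene interferon response list the median log2 ratio was 0.62 library-wide and 0.64 against the male PBS well, but -0.38 against the female PBS well. Irf7 and Slfn2, 2 of the 11, were at least 2-fold higher (0.952% of all measured genes) and Epsti1 alone at least 2-fold lower (2.44% of all measured genes).

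Across all genes few differed by 2-fold between the pooled libraries. Of 1681 measured genes, 16 were at least 2-fold higher in IL-27 pDC (0.952%) and 41 at least 2-fold lower (2.44%), around a median log2 ratio of -0.03. All 3 IL-27 wells lay above both PBS wells for 137 genes (8.15%) and below both for 190 (11.3%). Pairs of wells of the same library also differed by 2-fold, in 96 to 129 genes within the IL-27 library and in 246 genes between the 2 PBS wells.

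Named genes were the 12 highest and the 12 lowest ratios among measured genes whose IL-27 wells all lay on the same side of both PBS wells, so their direction was fixed by the choice. Pirb, an inhibitory receptor for MHC class I, stood at 229, 202 and 239 CPM in the IL-27 wells and at 96.9 and 108 CPM in the PBS wells, a ratio of 2.11 (1.55 to 2.90). The 3 IL-27 wells lay close together and above both PBS wells. Siglecg, an inhibitory sialic acid receptor, stood at 147, 67.3 and 86.9 CPM against 58.2 and 46.5 CPM, and Ankrd44, a regulatory subunit of protein phosphatase 6, at 131, 112 and 57.9 CPM against 19.4 and 48.0 CPM. Zmiz2, a transcriptional coregulator, stood at 278, 269 and 210 CPM in the IL-27 wells and at 116 and 141 CPM in the PBS wells.

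Among the rest of the 12, Atf7ip, a cofactor of gene silencing, had the highest library ratio of the named genes at 2.85 (1.73 to 4.79), with 87.3, 112 and 130 CPM in the IL-27 wells and 77.5 and 34.5 CPM in the PBS wells. Nfkbia, the inhibitor of NF-kB, stood at 191, 191 and 188 CPM in the IL-27 wells and at 155 and 107 CPM in the PBS wells. Ftx, a noncoding RNA of the X inactivation centre, stood at 71.0, 157 and 130 CPM in the IL-27 wells and at 58.2 and 54.0 CPM in the PBS wells, which differ in sex. Chdh, Abhd17b, Dguok, Nudt14 and Mycbp2 completed the 12, with library ratios of 1.72 to 2.14.

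Of the 12 lowest ratios among genes that did not overlap, 3 were in genes of the isoprenoid and sterol pathway, Idi1 and Fdps being the lowest of the 12. Idi1, which makes the activated isoprene unit, stood at 5.46, 22.4 and 7.24 CPM in the IL-27 wells (4 UMIs in all) and at 58.2 and 123 CPM in the PBS wells (3 and 82 UMIs). Its ratio was 0.0823 (0.0219 to 0.218). Fdps, which joins isoprene units, stood at 32.7, 33.6 and 65.2 CPM in the IL-27 wells and at 116 and 302 CPM in the PBS wells, a ratio of 0.152 (0.0884 to 0.247). Sqle, the squalene epoxidase of cholesterol synthesis, stood at 43.7, 22.4 and 29.0 CPM in the IL-27 wells and at 58.2 and 107 CPM in the PBS wells.

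The other lower genes had varied roles. Tubb2b, a tubulin, stood at 32.7, 44.8 and 36.2 CPM in the IL-27 wells and at 116 and 123 CPM in the PBS wells. Capg, an actin-capping protein gene, stood at 76.4, 89.7 and 116 CPM in the IL-27 wells and at 174 and 246 CPM in the PBS wells. Cd200, which encodes a ligand for an inhibitory receptor, stood at 109, 168 and 159 CPM in the IL-27 wells, 174 CPM in the female PBS well and 365 CPM in the male PBS well. Emid1, Gpr171, Tmem176b, Tmem123, Rilpl2 and the respiratory complex III gene Uqcrc2 completed the 12, with ratios of 0.331 to 0.453. The male PBS well supplied 666481 of the 718064 PBS UMIs by which these genes were chosen, so intervals against it were largely set by the choice. Against the male PBS well alone the interval of the ratio left out 1 for 12 of the 12 higher and 12 of the 12 lower genes. Against the female PBS well alone it did so for 0 of the 12 higher and for 1 of the 12 lower genes, Tubb2b at 0.314 (0.115 to 0.988).

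**Figure D4:**
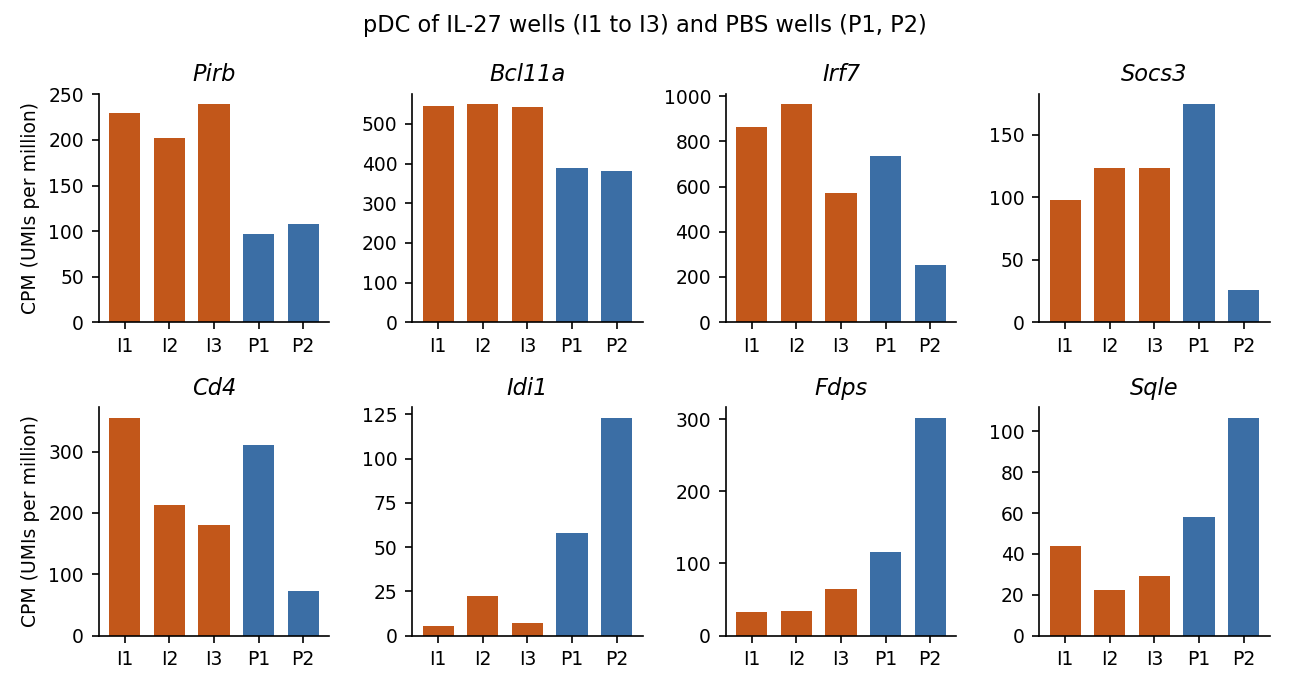
CPM of 8 genes in pDC of IL-27 wells 1 to 3 (I1 to I3, orange) and PBS wells 1 and 2 (P1 female and P2 male, blue). Pirb and Bcl11a are higher in each IL-27 well than in both PBS wells, Irf7, Socs3 and Cd4 are low in P2 alone, and Idi1, Fdps and Sqle are highest in P2 with P1 between it and the IL-27 wells.

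A list of 24 sterol synthesis and uptake genes was then drawn up after these values were seen, so it does not support them independently. Of its 8 measured members 8 had a log2 ratio below 0, 6 were at least 2-fold lower in IL-27 pDC, and in 4 all IL-27 wells lay below both PBS wells, with a median log2 ratio of -2.02. Over all 1681 measured genes 2.44% were 2-fold lower and 11.3% lay below both PBS wells, and only 761 had a log2 ratio above 0. Summed over the list, pDC held 682, 695 and 819 CPM in the IL-27 wells, 989 CPM in the female PBS well and 2044 CPM in the male PBS well. The exact Poisson interval of the female PBS well, 736 to 1300, overlapped those of the IL-27 wells, while that of the male well, 1937 to 2155, lay above all. Most of the difference thus belonged to the male PBS well. In T-gated cells the list summed to 319, 402 and 417 CPM in the IL-27 wells and to 370 and 609 CPM in the PBS wells. In cDC-gated cells it summed to 475, 324 and 899 CPM in the IL-27 wells and to 453 and 1148 CPM in the PBS wells. The male PBS well was thus also the highest in T- and cDC-gated cells. In macrophage-gated cells the sums were 347, 448 and 538 CPM in the IL-27 wells and 636 and 618 CPM in the PBS wells. In B-gated cells they were 333, 431 and 482 CPM in the IL-27 wells and 385 and 442 CPM in the PBS wells.

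**Figure D5:**
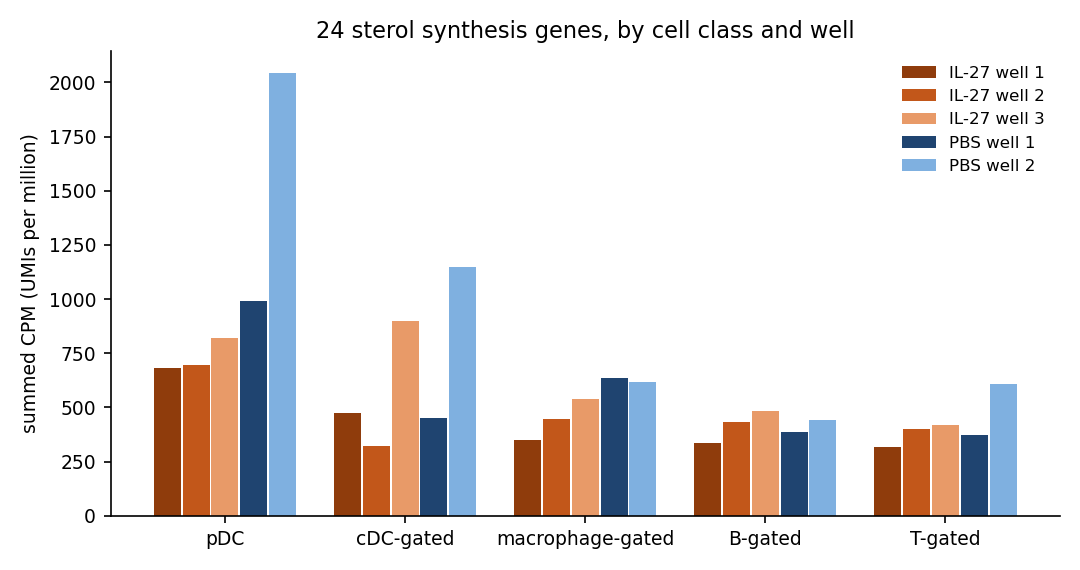
Summed CPM of 24 sterol synthesis genes in 5 cell classes, with IL-27 wells in orange shades and PBS wells in blue shades. The male PBS well is highest in pDC (2044 CPM), cDC-gated (1148 CPM) and T-gated cells (609 CPM) but not in macrophage-gated (618 CPM) or B-gated cells (442 CPM).

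Hmgcs1, which makes the first committed intermediate of the pathway, is shown because sterol-responsive promoters carry a site of the form TCACNCCAC for the factor SREBP. It stood at 21.8, 33.6 and 21.7 CPM in the IL-27 wells, 19.4 CPM in the female PBS well (1 UMI) and 176 CPM in the male PBS well. The line gives the 250 bases before its RefSeq start at chr13:119690101-119690350, plus strand, with the match in capitals 137 bases before the start.
Hmgcs1: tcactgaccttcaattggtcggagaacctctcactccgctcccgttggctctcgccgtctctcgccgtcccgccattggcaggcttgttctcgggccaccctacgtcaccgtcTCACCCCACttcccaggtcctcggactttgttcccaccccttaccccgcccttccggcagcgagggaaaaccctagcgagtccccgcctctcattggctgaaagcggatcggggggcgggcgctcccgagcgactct

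Searched on both strands, the 9 letters occurred in 1 of the 20 promoters found for 17 of the 24 listed genes (5%) and in 346 of all 32851 promoters (1.05%). The other promoters found for the list, that of Idi1 among them, did not hold these letters in this window.

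Most of the remaining pDC programme differed by less than 2-fold between groups. Of 30 pDC identity genes 28 were measured, 0 were at least 2-fold higher and 1 at least 2-fold lower, with a median log2 ratio of 0.07, or -0.05 against the female PBS well. Of the 28, 2 lay above both PBS wells in every IL-27 well and 5 below both, against 8.15% and 11.3% of all measured genes. The factors Bcl11a and Zeb2, both needed by mouse pDC, were higher in every IL-27 well than in both PBS wells. Bcl11a stood at 546, 549 and 543 CPM in the IL-27 wells and at 388 and 381 CPM in the PBS wells, and Zeb2 at 284, 247 and 232 CPM and at 213 and 156 CPM. Cox6a2, Ly6c2, Ctsl, Upb1 and Cd300c made up the 5 below. Ctsl stood at 606, 830 and 761 CPM in the IL-27 wells and at 1028 and 1091 CPM in the PBS wells. Its ratio was 0.688 (0.512 to 0.940) against the female PBS well and 0.648 (0.563 to 0.743) against the male PBS well. Against the female PBS well the intervals of Cox6a2 (0.736 to 1.08) and Upb1 (0.499 to 1.48) held 1. Ly6d, a surface gene of lymphoid-type precursors, was the member at least 2-fold lower, with 38.2, 0 and 152 CPM in the IL-27 wells and 38.8 and 225 CPM in the PBS wells, which overlapped.

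Cytokine receptor genes had a median log2 ratio of 0.37 over 12 measured members, of which none was 2-fold apart. The median was 0.12 against the female PBS well and 0.38 against the male PBS well. Csf2rb, the shared receptor chain for IL-3 and GM-CSF, stood at 382, 471 and 348 CPM in the IL-27 wells and at 291 and 273 CPM in the PBS wells. Flt3, the receptor for the growth factor of dendritic cells, stood at 186, 303 and 246 CPM in the IL-27 wells and at 194 and 138 CPM in the PBS wells. Flt3 overlapped between groups. Csf2rb, Csf2rb2 and Il10ra, 3 of the 12, lay above both PBS wells in every IL-27 well, as did 8.15% of all measured genes.

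Of 18 homing genes 10 were measured, with a median log2 ratio of -0.19, or 0.17 against the female PBS well. Ccr7 alone was 2-fold apart, with 2 UMIs in IL-27 pDC and 85 in PBS pDC, all of these in the male well. Those 85 UMIs lay in 10 of its 73 pDC, 34 of them in a single cell. Of all measured genes 0.952% were 2-fold higher and 2.44% 2-fold lower. In every IL-27 well 0 of the 10 lay above both PBS wells and 2, Ccr2 among them, below both, against 8.15% and 11.3% of all measured genes. Ccr2, an inflammatory chemokine receptor gene, stood at 295, 303 and 304 CPM in the IL-27 wells and at 407 and 324 CPM in the PBS wells. S1pr1, the receptor that draws lymphocytes out of tissue, had 0 UMIs in pDC, against 212 CPM in B-gated and 146 CPM in T-gated cells.

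Antigen presentation and secretion genes had library-wide medians near that of all genes, -0.03. The median log2 ratio was 0.08 over 8 MHC class II and costimulation genes, 0.11 over 15 MHC class I genes and -0.05 over 22 genes of the secretory pathway, and none of these genes was 2-fold apart. Against the female PBS well these medians were 0.11, 0.40 and 0.08. H2-Aa, a class II chain, stood at 3542, 2747 and 3340 CPM in the IL-27 wells and at 2501 and 3187 CPM in the PBS wells. Xbp1, the factor that drives secretory capacity, stood at 393, 583 and 572 CPM in the IL-27 wells and at 291 and 779 CPM in the PBS wells. Noct, a clock-controlled deadenylase gene, had 5 UMIs in IL-27 pDC and 10 in PBS pDC, too few to compare.

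pDC of the male PBS well also held RNA of other myeloid cells, in few cells and unevenly. Fscn1, a marker of mature dendritic cells, had 239 UMIs in 6 of 73 cells, 124 of them in a single cell. Id2, a factor of conventional dendritic cells that opposes TCF4, had 71 UMIs in 8 cells. Lyz2, a macrophage and neutrophil gene, had 136 UMIs in 7 cells, 129 of them in a single cell. In the 3 IL-27 wells together Fscn1 had 3 UMIs, Id2 had 0 and Lyz2 had 9, and in the female PBS well all 3 had 0.

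A UMI of any of Id2, Fscn1, Zbtb46, Lyz2, C1qa, C1qb, C1qc or Nkg7 was found in 0, 0 and 3 pDC of the IL-27 wells and in 0 and 19 pDC of the PBS wells. The male PBS pDC were also the deepest, at a median of 8853 UMIs, against 4855, 6791 and 6483 in the IL-27 wells and 5045 in the female PBS well. Without these cells, an alternative chosen after the data were seen, the male PBS well had 54 pDC, or 0.991% of its cells, and the library ratio was 0.609. Its Irf7 level was then 322 CPM and its sterol sum 2021 CPM, against 575 to 964 CPM and 584 to 695 CPM in the IL-27 wells. The log2 ratio of Tmem176b was 0.52 without these cells and -1.45 with them. The chemokine gene Ccl5 was likewise almost confined to the male PBS well, with 329 UMIs in 22 of its cells, 107 of them in a single cell, against 4 UMIs in all IL-27 pDC and 0 in the female PBS well. The mast cell protease Mcpt1 had 86 UMIs in 7 of its cells and 0 in every other well. The part of co-captured cells in these values was not tested.

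The kallikrein Klk4 was carried by a minority of pDC. It was found in 6 of 37, 2 of 14 and 1 of 20 pDC of the IL-27 wells, in 1 of 10 of the female PBS well and in 24 of 73 of the male PBS well, with up to 87 UMIs in a cell. Its level was 115, 44.8 and 86.9 CPM in the IL-27 wells and 58.2 and 464 CPM in the PBS wells, so the male well again stood apart. The kallikrein Klk1b27, 166486 bases away, did not. It stood at 688, 504 and 608 CPM in the IL-27 wells and at 659 and 507 CPM in the PBS wells. None of 16 proliferation genes was measured in pDC.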

How the data were processed

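Live CD45+ gastric cells of 2 pooled libraries, IL-27 and PBS, were analysed. Cell Ranger 3.0.0 and mm10 are named in the submitters' processing notes and version 3.1.0 in the matrix headers. The authors deposited raw UMI counts, whole numbers for each gene in each barcode. Deposited barcodes numbered 20897 for IL-27 (80121995 UMIs) and 12276 for PBS (43501501 UMIs). The members and gene lists were chosen with earlier results of these data known.

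Cells with at least 200 genes and at most 10% mitochondrial UMIs were kept (20579 IL-27, 11793 PBS). pDC counts were summed per library and well and divided by all their UMIs (CPM). Log2 ratios used a pseudocount of 1 CPM. T-, B-, macrophage- and cDC-gated cells were set by UMIs of their own markers and no Siglech. Named genes were the 12 highest and 12 lowest ratios whose wells did not overlap, the 20 genes furthest above other classes, and list members, leaving out receptor, Xist, Tsix and Y-linked, mitochondrial, ribosomal, haemoglobin and unnamed genes. Cd8b1, Id2, Nkg7 and the sterol list were chosen after values were seen. With 1 library per group no test was run. Intervals are exact at 95% and, like limits from counts of 0 (3 counts), cover counting error only. Scrublet (scanpy) was run per well: it called 0 pDC, and its 0.0183% in PBS well 2 was taken as a failed call, so no doublets were removed. Ratios and intervals were tested on simulated counts with counting error alone. These held no differences between cells or wells, so the test cannot show how the intervals do where few cells hold most UMIs. Alternatives varied the gate, cell filters, doublets, scaling, pseudocount, depth and wells.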

Additional observations from a re-analysis of the deposited data

How the results depend on the processing

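The IL-27 to PBS ratio of the pDC share, 0.490, was 0.294 with at most 5% mitochondrial UMIs and 0.287 without cells holding a UMI of Ms4a1, Cd79b, Trac, Trbc1 or Trbc2, a setting that left 4 IL-27 and 8 PBS pDC since 92.2% of pDC held one. With each well left out in turn it ran from 0.258 (without PBS well 1) to 2.19 (without PBS well 2), which turns the direction. The 16 genes 2-fold higher became 3 at a minimum of 300 CPM, 37 at 5% mitochondrial UMIs, 219 with no CPM minimum, 30 without those T and B cell UMIs, 38 after thinning and 8 without the Cd3 and Cd79a limits. With each well left out they numbered 18 to 88. The 41 genes 2-fold lower became 10, 233, 98 and 62 at 300 CPM, with no CPM minimum, without T and B cell UMIs and after thinning, and 44 to 130 with each well left out, both highest counts being without PBS well 2.

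Among named genes the log2 ratio changed sign without T and B cell UMIs to -5.90 for Atf7ip, Ftx, Dguok and Nudt14, -4.92 for Chdh, -6.47 for Siglecg, -6.70 for Nfkbia and 1.04 for Emid1, in those 12 cells. The negative values rest on 4 IL-27 cells and are floor values set by the 1 CPM pseudocount. They give no size of a difference and are no evidence of a reversed one. That of Tmem176b reversed to 0.0906 without the Cd3 and Cd79a limits. It reversed to 0.52 without cells holding a UMI of the 8 genes of other myeloid and NK cells. Both settings were chosen after the data were seen. The causes were not tested. No paired analysis was possible because each group is 1 library. The female PBS well, with 10 pDC and 51583 UMIs, sets the precision.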

Other observations

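Further lists add to the picture of pDC. Of 24 inhibitory and regulatory genes 11 were measured, with a median log2 ratio of -0.17 (-0.11 against the female PBS well). Of the 11, 1 lay above both PBS wells in every IL-27 well and 4 below both, against 8.15% and 11.3% of all measured genes. Pirb alone was 2-fold higher and 0 were 2-fold lower, against 0.952% and 2.44% of all measured genes. Tyrobp, an adaptor of activating receptors, stood at 5698, 5112 and 5274 CPM in the IL-27 wells and at 5816 and 6537 CPM in the PBS wells, so every IL-27 well was lower. Tgfb1, which encodes a suppressive cytokine, stood at 371, 224 and 384 CPM in the IL-27 wells and at 543 and 461 CPM in the PBS wells. Over 10 measured genes of lymphoid programmes the median was 0.42 (0.32 against the female PBS well), over 8 factors of dendritic cell fate 0.09 (0.16) and over 8 genes of dissociation stress -0.22 (-0.37). Jun, an immediate early gene, stood at 317, 426 and 456 CPM in the IL-27 wells and at 601 and 173 CPM in the PBS wells, so the male PBS well was again the lowest. Among 3 measured genes of transitional dendritic cells Crip1 stood at 267, 673 and 1036 CPM in the IL-27 wells and at 679 and 1988 CPM in the PBS wells.

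Marker lists of other cells were summed in pDC, where the rule's limits on Cd3 and Cd79a hold down the B and T cell sums. Summed CPM over 10 B cell markers was 70.9 in pDC, against 5646 in B-gated cells, and over 10 macrophage and monocyte markers 881 in pDC, against 32735 in macrophage-gated cells. Over 10 T cell markers it was 572 in pDC, most of it Trac and Trbc1, against 4646 in T-gated cells, and over 10 cDC markers 940 in pDC, against 2931 in cDC-gated and 879 in macrophage-gated cells. In pDC it was 31.0 over 11 gastric epithelial markers, 51.4 over 7 plasma cell markers, 31.9 over 7 NK cell markers, 123 over 7 mast cell markers, 1.77 over 6 neutrophil markers and 0 over 5 erythroid markers. Among cDC markers Cd209a, a lectin gene, stood at 355, 179 and 362 CPM in the IL-27 wells and at 523 and 155 CPM in the PBS wells.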
